A study of Mus musculus with 2 samples.

Results

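The epithelial antimicrobial and inflammation genes were a set of 10 genes, of which 9 were matched by exact symbol among the 32285 genes of the count tables: Reg3b, Reg3g, Saa1, Lcn2, Nos2, Duox2, Duoxa2, Ido1 and Lypd8. Pla2g2a was not analysed here. They were measured by single-nucleus RNA sequencing of snap-frozen mouse colon in 1 WT library and 1 HIF-1α KO library, called the knockout library from here on. The knockout mice carried a Cre recombinase driven by the Ncr1 promoter and loxP-flanked alleles of HIF-1α (Ncr1cre+ Hif-1{alpha}fl+/fl+), which directs the deletion to NKp46+ innate lymphoid and NK cells and not to the epithelium, and the WT mice were littermates. All mice were 8 to 12 weeks old and had been given 2% dextran sodium sulfate (DSS), which injures the colonic epithelium, for 3 days and then left to recover for 4 days, in 4 such cycles, with tissue taken on day 28. Libraries of untreated mice were not analysed here. Each library was a pool of 3 animals, so the spread between animals was not measured, no test between the genotypes was possible, and every interval is a 95% interval of counting error only.

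The surface of the colon is guarded by proteins that enterocytes and goblet cells secrete or carry on their membrane. Reg3b and Reg3g encode C-type lectins that kill bacteria, and Lypd8 encodes a membrane-anchored protein that keeps flagellated bacteria away from the epithelium. Saa1 (serum amyloid A) and Lcn2 (lipocalin 2, which binds the iron carriers of bacteria) are acute phase genes. Duox2 and its maturation factor Duoxa2 make the hydrogen peroxide-forming oxidase of the apical membrane, Nos2 encodes inducible nitric oxide synthase, and Ido1 encodes an enzyme that degrades tryptophan. Cytokines such as IL-22, IL-17 and interferon gamma, and microbial signals, are known inducers of members of this set.

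Saa1, Duoxa2 and Lypd8 were each highest in the same enterocyte cluster in both libraries, and the 250 bases before their start, which overlap no annotated gene, are shown for that reason (RefSeq, GRCm38.p6, 5′ to 3′ on the gene's strand). The window of Saa1 is chr7:46742981-46743230 on the minus strand. That of Duoxa2 is chr2:122298650-122298899 on the plus strand, and that of Lypd8 is chr11:58378782-58379031 on the plus strand. Another RefSeq window of Lypd8, chr11:58380396-58380645, overlaps an annotated gene and is not shown. Capitals mark TATAAA, the core of the TATA box, which was searched on both strands and occurs in 12.4% of the 32851 windows of this length.
Saa1: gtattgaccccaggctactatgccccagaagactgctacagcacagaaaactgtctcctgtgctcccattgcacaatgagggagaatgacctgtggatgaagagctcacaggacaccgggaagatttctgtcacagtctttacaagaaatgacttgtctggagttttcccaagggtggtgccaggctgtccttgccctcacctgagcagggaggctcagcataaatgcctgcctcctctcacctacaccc
Duoxa2: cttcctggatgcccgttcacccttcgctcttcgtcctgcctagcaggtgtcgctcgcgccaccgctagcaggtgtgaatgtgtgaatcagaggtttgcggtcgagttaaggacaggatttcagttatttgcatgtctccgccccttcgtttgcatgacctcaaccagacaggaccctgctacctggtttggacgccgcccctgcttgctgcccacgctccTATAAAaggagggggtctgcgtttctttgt
Lypd8: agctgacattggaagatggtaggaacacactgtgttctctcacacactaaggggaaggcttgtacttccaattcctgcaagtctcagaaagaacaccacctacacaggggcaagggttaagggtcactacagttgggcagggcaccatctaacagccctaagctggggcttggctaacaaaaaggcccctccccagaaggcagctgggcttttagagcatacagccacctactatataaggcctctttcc
Among these 3 windows that of Duoxa2 alone held TATAAA, 30 bases before the start, and other forms of the TATA box were not searched. The STAT motif TTCNNNGAA, found in 7.02% of all windows, was in none of the 3 on either strand. Among the 7 members with a RefSeq window, Reg3b alone held the STAT motif, 129 bases before its start, and the NF-kB motif that was searched, found in 0.356% of all windows, was in 0. Duox2 and Duoxa2 are transcribed away from each other on chromosome 2, with 450 bases between them (Duox2 at 122279247 to 122298449 on the minus strand, Duoxa2 at 122298900 to 122302885 on the plus strand, GRCm38). The other members lie, in the same build, on chromosome 6 (Reg3b at 78370657 to 78373466, plus strand, and Reg3g at 78466269 to 78468872, minus strand), chromosome 7 (Saa1 at 46740497 to 46742980, minus strand), chromosome 2 (Lcn2 at 32384633 to 32388252, minus strand), chromosome 11 (Nos2 at 78920787 to 78960254, and Lypd8 at 58379043 to 58390728, plus strand) and chromosome 8 (Ido1 at 24584136 to 24597009, minus strand). Counts were made per whole gene, so that exons and introns are not told apart. Duoxa2 overlaps Duoxa1 on the opposite strand, for which 1 and 6 UMIs were counted in the WT and knockout libraries.

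The filters on detected genes and mitochondrial UMIs (unique molecular identifiers, each a captured RNA molecule) kept 4884 WT and 4702 knockout nuclei, with medians of 2058.5 and 4197 UMIs, and 3 cell barcodes occurred in both libraries. The deleted gene, Hif1a, had 2284 UMIs in WT and 4699 in knockout nuclei, and Ncr1, whose promoter drives Cre, had 1 and 0, so that Hif1a over all nuclei does not check a deletion in so few cells. Levels are given as CPM, the UMIs of a gene per 1000000 UMIs of the same group of nuclei in that library. Clusters were formed without the members and their pathway genes and are called "-like" where markers named them. Epithelial-like clusters held 2250 WT and 2989 knockout nuclei, 46.1% and 63.6% of each library, and clusters left unnamed held 1777 and 1081. Unnamed cluster 1 (351 WT and 586 knockout nuclei) was led by genes that include the crypt enterocyte markers Htr4 and Cftr. It did not meet the limits for a name, so the epithelial-like group lacks these nuclei. Summed over all nuclei, markers of absorptive enterocytes stood at 2128 CPM in the WT and 3415 in the knockout library, and those of smooth muscle at 972 and 578. Their part in the levels over all nuclei was not tested, and levels within clusters are given beside those. Fewer cells of a type and less RNA per cell cannot be told apart in levels over all nuclei.

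Over all nuclei, Nos2 and Ido1 were at least 2-fold higher in the knockout library, Reg3b and Lcn2 were at least 2-fold lower on under 40 UMIs per library, and the other 5 members lay within 2-fold. All 9 members had the 20 UMIs required in the libraries together. Thus 2 of 9 were higher and 2 lower, where 7.79% of the 16424 genes compared were higher and 8.48% lower. Their median log2 ratio (knockout over WT) was 0.29, and that of all genes compared was -0.01. In epithelial-like nuclei 8 members could be compared, of which Nos2 and Ido1 were higher and 0 lower, where 7.39% of 14924 genes were higher and 7.26% lower. The median log2 ratio there was 0.41 for the members and -0.02 for all genes compared.

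**Figure D1:**
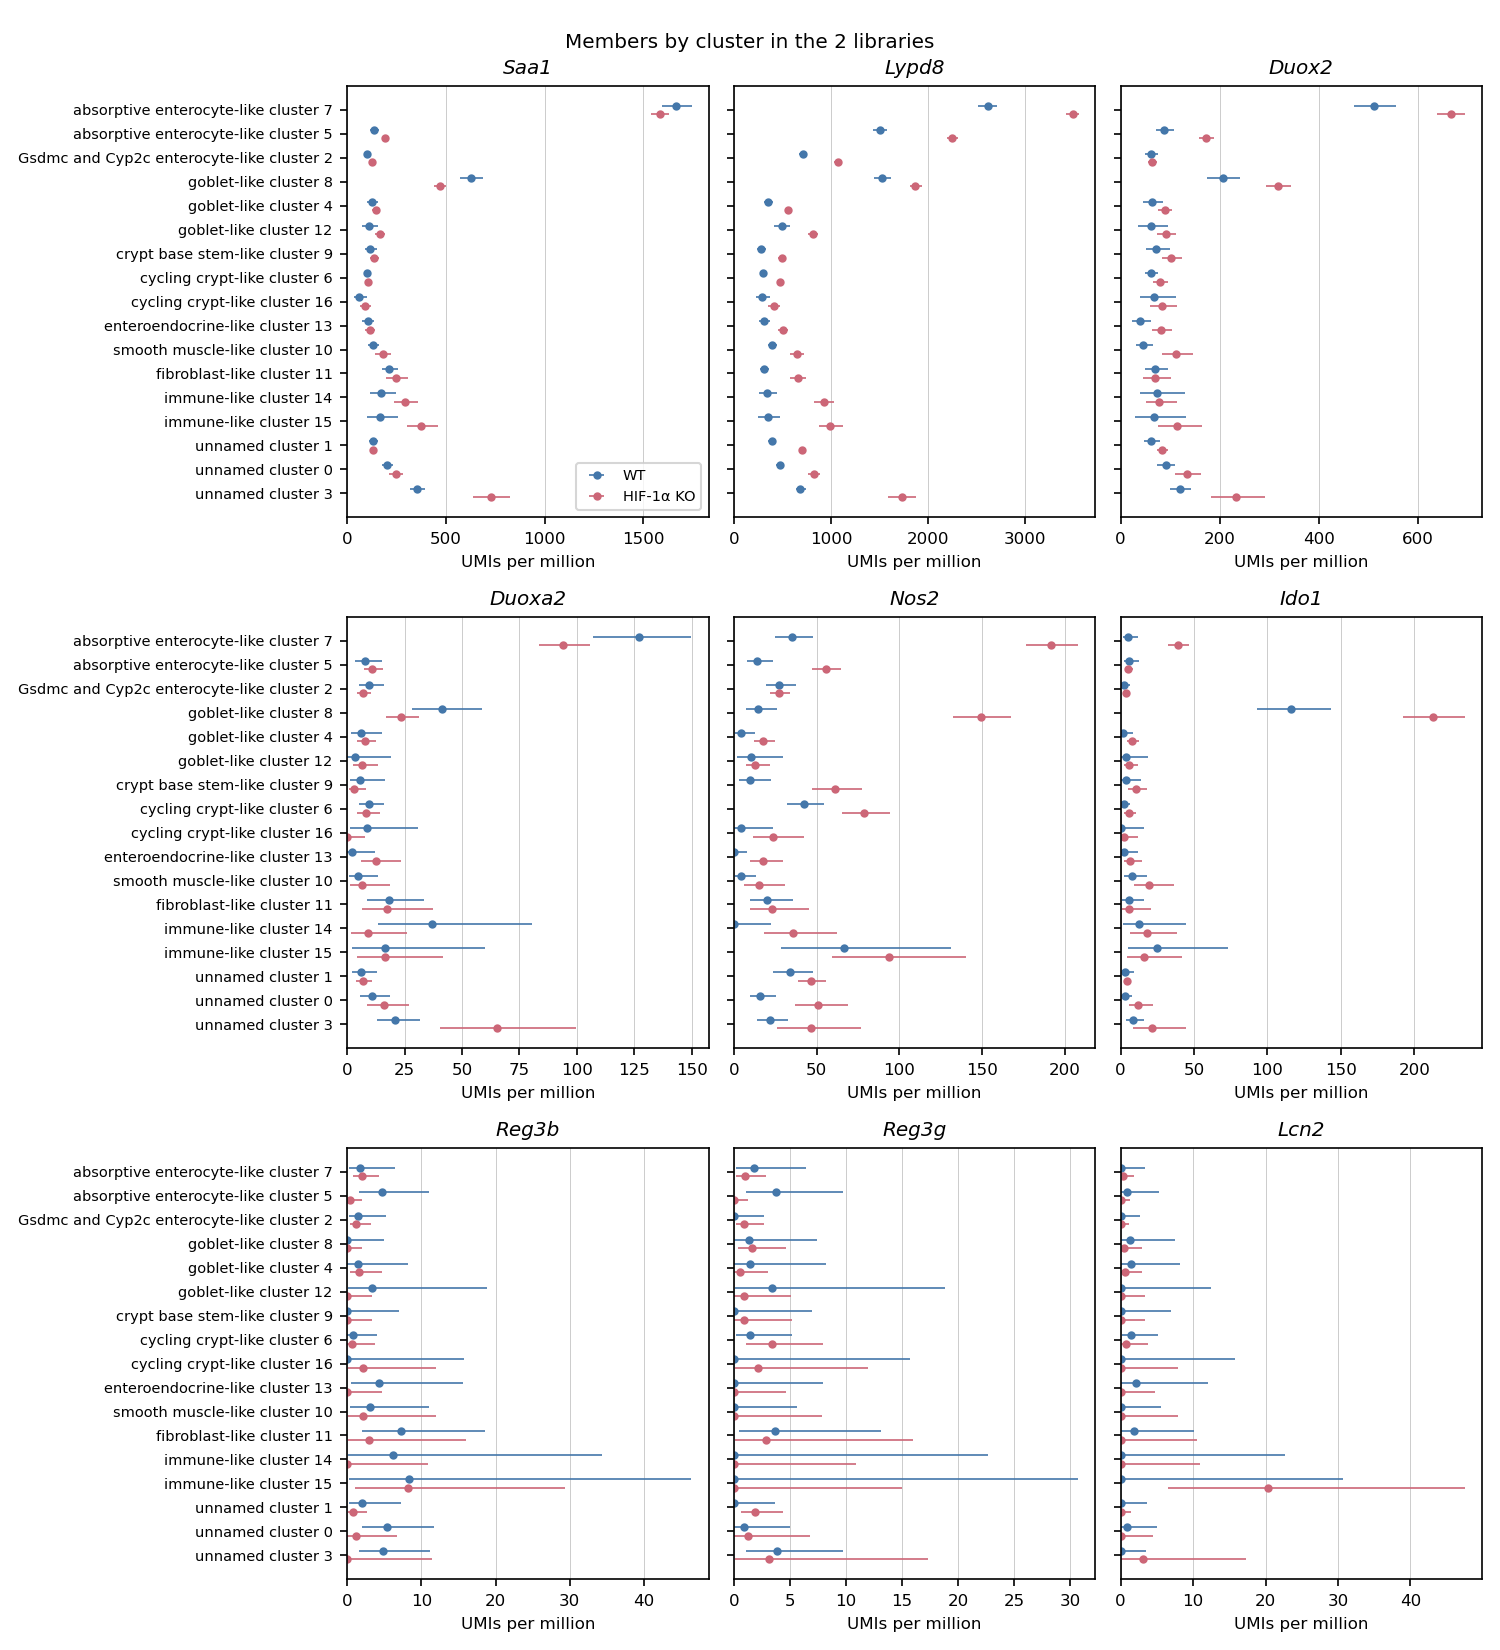
Level of each of the 9 members in CPM (x axes, from 0, with a scale of its own for each gene) in 17 clusters of nuclei (y axis), for the WT and the HIF-1α KO library. Points are levels of summed UMIs and bars 95% Poisson intervals. Absorptive enterocyte-like cluster 7 is highest for Saa1, Lypd8, Duox2 and Duoxa2 in both libraries, with Saa1 at 1667 and 1584 CPM.

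Saa1 was concentrated in 1 cluster and differed little there between the genotypes. Absorptive enterocyte-like cluster 7 (234 WT and 401 knockout nuclei) was led by genes that include Clca4a, Car4 and Aqp8, of which Car4 and Aqp8 mark surface colonocytes. It held 45.97% of the 4048 Saa1 UMIs of the WT library and 55.1% of the 8822 of the knockout library, in 4.79% and 8.53% of the nuclei. Saa1 stood there at 1667 (1592 to 1744) CPM in WT and 1584 (1539.8 to 1629) in knockout nuclei, a log2 ratio of -0.07 (-0.15 to 0.00). Over all nuclei it stood at 305 (296 to 315) and 374 (366 to 382), a log2 ratio of 0.29 (0.24 to 0.35). Of the 20 clusters with at least 20 Saa1 UMIs, 18 had a log2 ratio above 0, and the interval lay above 0 in 9 and below 0 in 1. The 1 below was goblet-like cluster 8. In goblet-like cluster 8, led by genes that include Clca1 and Fcgbp, which encode mucus proteins, Saa1 was lower in knockout nuclei, at 628 (572 to 687) and 468 (438 to 500.0). In absorptive enterocyte-like cluster 5, led by genes that include Slc9a3 and Slc26a3, it was higher, at 138 (116 to 162) and 193 (177 to 209.6). Smooth muscle-like and fibroblast-like nuclei, which were taken as the background of free RNA, had 167 (145 to 192) and 208 (178 to 242) CPM. Whether the UMIs in these nuclei are free RNA was not tested. Of the WT background UMIs of Saa1, 52 of 202 lay in 1 nucleus. In CPM the Saa1 level of cluster 5 did not exceed this background in either library. The background nuclei were shallower, with medians of 1938 and 2271 UMIs, beside 3022 and 5576.5 in cluster 5. The part of depth in this comparison was not tested.
The Saa1 UMIs were spread unevenly, with 114 WT and 127 knockout nuclei carrying 50% of those of their library and up to 99 and 254 in a single nucleus. Saa2, a near-identical paralog, had 7 and 17 UMIs, and how reads were divided between the genes is uncertain.

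Lypd8 was detected in more nuclei than any other member, and its CPM was higher in the knockout library in each of the 23 clusters, epithelial or not. It was highest in cluster 7, at 2613 (2519 to 2709.9) in WT and 3489 (3424 to 3556) in knockout nuclei, a log2 ratio of 0.42 (0.36 to 0.48). Goblet-like cluster 8 stood at 1526 (1438 to 1617) and 1870.2 (1809 to 1933), and absorptive enterocyte-like cluster 5 at 1506 (1432 to 1582) and 2249.9 (2195 to 2306). These clusters did not differ beyond their intervals in the WT library, while cluster 5 was above cluster 8 in the knockout library. In crypt base stem-like nuclei Lypd8 stood at 281 and 493, which made cluster 7 9.31-fold and 7.08-fold higher. Smooth muscle-like and fibroblast-like nuclei had more Lypd8 than the crypt base, at 358 (325 to 394) and 649.6 (595 to 707), so that the level at the crypt base was not above background. This background had a log2 ratio of 0.86 (0.67 to 1.05), beside 0.67 (0.63 to 0.70) in epithelial-like nuclei. With the background of the same library subtracted, the log2 ratio in cluster 7 was 0.33.

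Duox2 and Duoxa2, whose proteins work together, differed in opposite directions between the libraries in cluster 7 and in goblet-like cluster 8, by less than 2-fold each. In cluster 7 Duox2 stood at 512 (471 to 556) CPM in WT and 666 (637 to 696) in knockout nuclei, a log2 ratio of 0.38 (0.24 to 0.52). In the same nuclei Duoxa2 stood at 127 (107 to 149.9) and 94.2 (83.6 to 106), a log2 ratio of -0.43 (-0.73 to -0.13). The intervals of these ratios lie on opposite sides of 0. In cluster 8 Duox2 stood at 206 (175 to 241) and 317 (292 to 344), while Duoxa2 stood at 41.4 (28.1 to 58.8) and 23.3 (16.9 to 31.2) on 31 and 44 UMIs. The knockout level of Duoxa2 in cluster 8 overlapped the background of that library, 11.03 (5.04 to 20.9).
Over all nuclei Duox2 was 1.64-fold (1.55 to 1.74) higher in the knockout library, at 117 and 192, and Duoxa2 stood at 21.3 in both. In the background nuclei Duox2 stood at 56.4 (43.8 to 71.5) and 93.1 (73.4 to 117), a log2 ratio of 0.72 (0.23 to 1.22), close to the 0.64 (0.55 to 0.74) of epithelial-like nuclei. With this background subtracted, the log2 ratio of Duox2 in cluster 7 was 0.33 and that of Duoxa2 was -0.49, so that the directions in cluster 7 stayed opposite. In the knockout library the interval of Duoxa2 in cluster 7 overlapped that of unnamed cluster 3. In that cluster Duoxa2 stood at 20.95 (13.1 to 31.7) in WT and 65.1 (40.3 to 99.6) in knockout nuclei, a log2 ratio of 1.64 (0.70 to 2.57). Unnamed cluster 3 was shallow, with medians of 1400 and 1741 UMIs, and its leading genes include AY036118, Gpx2, Rps9 and Igkc. Saa1, Nos2 and Lypd8 were also at least 2-fold higher in its knockout nuclei. The median log2 ratio there was 1.09 for the members compared and 0.12 for all genes compared. Of the 8 clusters with at least 20 Duoxa2 UMIs, 4 had a log2 ratio above 0, and the interval lay above 0 in 1 and below 0 in 2, and unnamed cluster 3 was the only 1 of the 8 past 2-fold.
Within cluster 7, nuclei with a Duoxa2 UMI (67 WT and 124 knockout) also had higher levels of other members. Their Duox2 level was 874 (783 to 973) in the WT library, beside 324 (284 to 368) in nuclei without one. In the knockout library it was 1002 (942 to 1064) beside 492 (462 to 524). Saa1 behaved alike, at 2686 beside 1137 in WT and 2873 beside 915 in knockout nuclei. Nuclei with a Duoxa2 UMI were deeper, with medians of 5253 beside 3931 UMIs in WT and 7052 beside 5999 in knockout nuclei, and the part of depth was not tested.

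Nos2 had the largest ratio of the 9 members over all nuclei, and it was higher in the knockout library in epithelial-like nuclei and in the other named nuclei alike, while Gsdmc and Cyp2c enterocyte-like nuclei had close levels. Over all nuclei 275 WT and 1636 knockout UMIs gave 20.7 (18.4 to 23.3) and 69.3 (65.99 to 72.7) CPM, 3.34-fold (2.94 to 3.81) higher. They came from 170 and 674 nuclei, of which 132 and 428 carried exactly 1 UMI. In cluster 7 the level was 34.9 (24.8 to 47.7) in WT and 192 (177 to 208) in knockout nuclei, 5.50-fold (3.97 to 7.81) higher. Here 23 of 234 WT and 160 of 401 knockout nuclei carried a UMI. In goblet-like cluster 8 it was 14.7 (7.34 to 26.3), from 11 UMIs, and 149 (132 to 168), from 282 UMIs of which 1 nucleus held 48, 10.1-fold (5.59 to 20.6) higher. Crypt base stem-like nuclei had 9.49 (3.08 to 22.1), from 5 UMIs, and 61.00 (47.2 to 77.6). In Gsdmc and Cyp2c enterocyte-like nuclei the levels were close, at 27.3 (19.4 to 37.5) and 27.5 (22.1 to 33.9). Of the 12 clusters with at least 20 Nos2 UMIs, 12 had a log2 ratio above 0, and the interval lay above 0 in 9. The largest ratio was that of lymphatic endothelial-like nuclei, at 9.69 (1.17 to 35.01) in WT and 149.9 (91.6 to 231) in knockout nuclei, on 2 and 20 UMIs, of which 13 lay in 1 knockout nucleus. All named nuclei other than epithelial-like ones had 12.6 (8.23 to 18.5) and 42.7 (33.9 to 53.1), a log2 ratio of 1.76 (1.11 to 2.46), beside 1.81 (1.58 to 2.05) in epithelial-like nuclei. Of the 26 WT and 81 knockout UMIs in those other nuclei, immune-like nuclei (159 and 278) held 8 and 35. Lymphatic endothelial-like nuclei held 2 and 20, and smooth muscle-like and fibroblast-like nuclei (501 and 248) held 14 and 15. The part of this mix of nuclei in the ratio was not tested.
Among clusters with at least 50 nuclei in the WT library, the order was not resolved. Immune-like cluster 15 was highest at 66.6 (28.8 to 131) on 8 UMIs, followed by cycling crypt-like cluster 6 at 42.2 (32.1 to 54.4) and cluster 7, with overlapping intervals. Among clusters with at least 50 nuclei in the knockout library, cluster 7 was highest, above cluster 8, and immune-like cluster 15 stood at 93.6 (59.3 to 140.5). The interval of the 42 lymphatic endothelial-like nuclei, 91.6 to 231, overlapped those of clusters 7 and 8.
Nos2 is also a gene of activated macrophages. The 7 myeloid markers summed in cluster 7 to 76.1 (60.8 to 94.1) CPM in WT and 58.98 (50.7 to 68.2) in knockout nuclei, with Cd163 at 0 in both, and in cluster 8 to 36.1 (23.8 to 52.5) and 12.7 (8.13 to 18.9), with Csf1r and Cd163 at 0 in both. These sums were not higher in the knockout nuclei of either cluster, and the part of macrophage RNA in the Nos2 levels was not tested. The background nuclei had 11.6 (6.35 to 19.5) and 18.4 (10.3 to 30.3) for Nos2, on 14 and 15 UMIs, and the knockout levels of clusters 5, 7, 8 and 9 were above this background while the WT levels of clusters 5, 8 and 9 overlapped it.
Knockout nuclei of cluster 7 with a Nos2 UMI (160) had higher levels of other members than the 241 without one. Duoxa2 stood at 157 (136 to 181) beside 48.3 (38.7 to 59.7), and Saa1 at 2289 (2207 to 2373) beside 1073 (1025 to 1122). Their median depths were 6612 and 6038 UMIs.

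Ido1 was found mainly in goblet-like cluster 8 of both libraries, where a few nuclei carried many of its UMIs. The cluster held 87 of 139 WT and 402 of 645 knockout UMIs, 62.6% and 62.3%. Its level was 116 (93.1 to 143) CPM in WT and 213 (192 to 234) in knockout nuclei, 1.83-fold (1.45 to 2.33) higher. These UMIs lay in 29 of 191 and 56 of 300 nuclei, and the highest knockout nuclei held 94 and 60. Without the top nucleus of each library the log2 ratio in cluster 8 was 0.73 in place of 0.87, and with nuclei weighted equally it was 0.37. With each nucleus thinned to 1000 UMIs, 8.38% (4.86 to 13.2) of WT and 9.33% (6.29 to 13.2) of knockout nuclei of the cluster had an Ido1 UMI, so that no difference in the share was detectable at this depth.
In cluster 7 Ido1 went from 6 UMIs in 6 WT nuclei to 119 UMIs in 47 knockout nuclei, or 5.37 (1.97 to 11.7) and 38.8 (32.1 to 46.4) CPM, 7.22-fold (3.22 to 20.1) higher. The WT level overlapped the background of 6.63 (2.86 to 13.1), whereas the knockout level was above its background of 13.5 (6.73 to 24.1). With thinning, 0.855% (0.104 to 3.05) of WT and 2.24% (1.03 to 4.22) of knockout nuclei of cluster 7 had an Ido1 UMI. These were 2 and 9 nuclei, and the intervals of the shares overlapped. Goblet markers in cluster 7 summed to 878 (824 to 934) CPM in WT and 1436 (1394 to 1479) in knockout nuclei, and their part in the Ido1 ratio was not tested. In cluster 5 Ido1 stood at 5.70 and 5.28. Over all nuclei Ido1 was 2.61-fold (2.17 to 3.15) higher in the knockout library, at 10.5 and 27.3, from 79 and 214 nuclei. In epithelial-like nuclei its log2 ratio of 1.26 came under 2-fold when nuclei were thinned (0.93) or weighted equally (0.95).

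**Figure D2:**
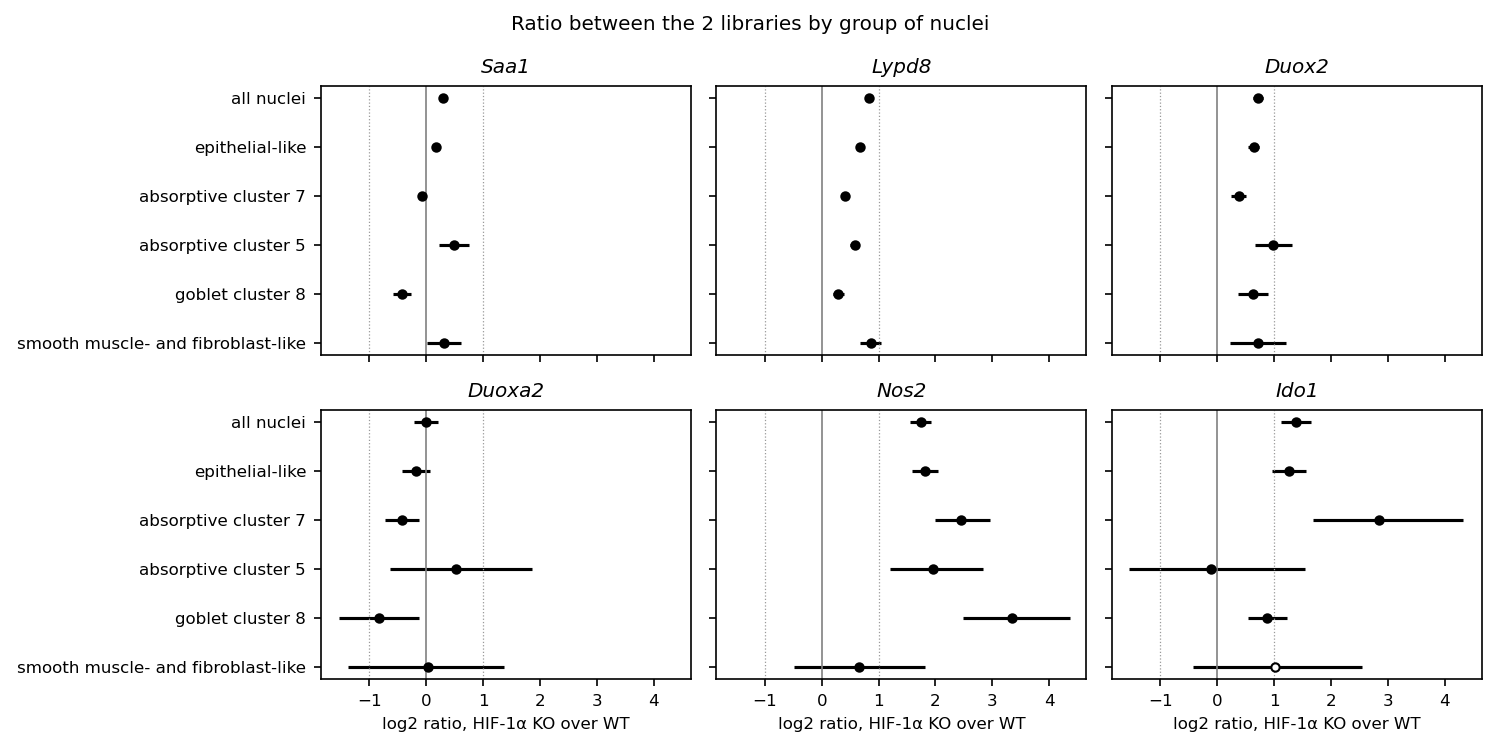
Log2 ratio of HIF-1α KO over WT (x axis) for 6 members in 6 groups of nuclei (y axis), with exact conditional 95% intervals of counting error and dotted lines at 2-fold. Open points mark under 20 UMIs in the libraries together. In absorptive enterocyte-like cluster 7, Nos2 lies at 2.46 and Ido1 at 2.85, while Saa1 lies at -0.07 and Duoxa2 at -0.43.

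In cluster 7, 6 members could be compared, of which Nos2 and Ido1 were at least 2-fold higher and 0 lower, where 5.54% of 9676 genes were higher and 8.38% lower. In cluster 8, 1 of 6 members was higher, Nos2, where 5.52% of 8802 genes were higher and 6.0% lower. In cluster 5, 1 of 6 members was higher, again Nos2, at 14.2 (7.97 to 23.5) and 55.6 (47.3 to 64.96) CPM, where 5.87% of 9819 genes were higher and 6.38% lower. Smooth muscle-like and fibroblast-like nuclei had 0 of 5 members past 2-fold, where 4.47% of 9634 genes were higher and 3.6% lower. Among all named nuclei other than epithelial-like ones, Nos2 and Lypd8 of 6 members were higher, where 6.75% of 12223 genes were higher and 2.72% lower.

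The share of nuclei with a UMI depends on depth, which was larger in the knockout library. Thinning each nucleus to 1000 UMIs left out 63 knockout and 0 WT nuclei that were shallower. Nos2 was detected in 3.48% of WT and 14.3% of knockout nuclei before thinning, and in 1.66% (1.32 to 2.06) and 4.55% (3.97 to 5.19) after it. In cluster 7 the thinned shares of Nos2 were 4.70% (2.37 to 8.26) and 14.2% (10.9 to 18.02), and in the background nuclei they were 1.60% (0.692 to 3.12) and 1.25% (0.259 to 3.61). The Nos2 shares therefore differed between the libraries beyond counting error in cluster 7 and not in the background nuclei. Thinned shares of Duox2 in cluster 7 were 35.5% (29.3 to 41.97) and 48.1% (43.1 to 53.1), and those of Saa1 were 55.1% (48.5 to 61.6) and 51.6% (46.6 to 56.6). Those of Duoxa2 were 11.97% (8.10 to 16.8) and 7.98% (5.52 to 11.1), and their intervals overlapped. In goblet-like cluster 8 the thinned shares of Duoxa2 were 3.66% (1.49 to 7.41) and 1.67% (0.543 to 3.85), also with overlapping intervals. Lypd8 was detected in 83.8% and 88.03% of thinned nuclei of cluster 7, and in 26.5% (22.7 to 30.6) and 47.5% (41.04 to 54.02) of the background nuclei.

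**Figure D3:**
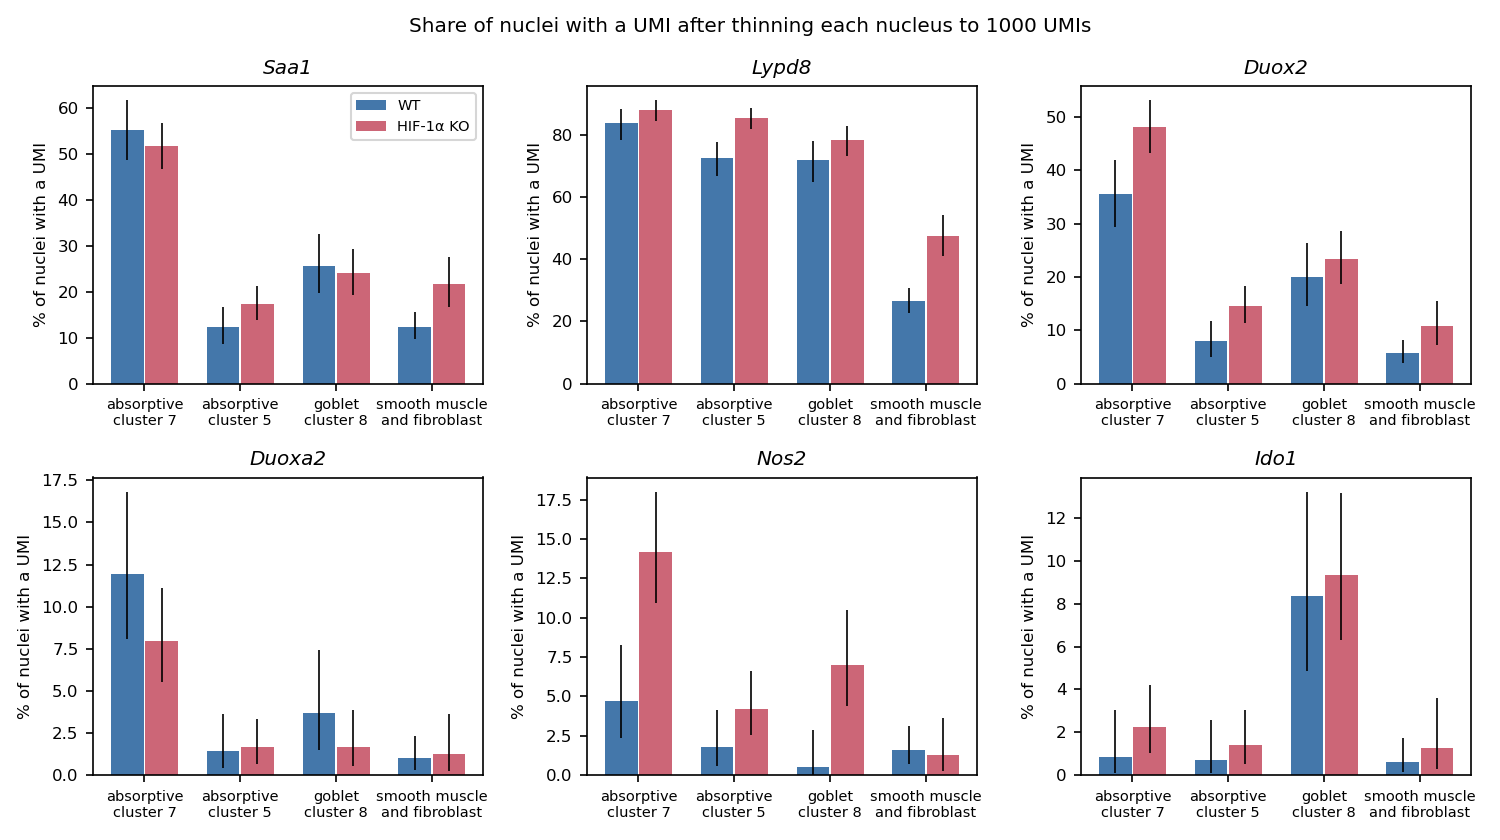
Share of nuclei with at least 1 UMI of each of 6 members after each nucleus was thinned to 1000 UMIs (y axes, percent, from 0), in 4 groups of nuclei (x axes) of the WT and the HIF-1α KO library. Bars are shares and lines exact 95% binomial intervals. Smooth muscle- and fibroblast-like nuclei were taken as the background, and Nos2 in cluster 7 stands at 4.70% and 14.2%.

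Reg3b, Reg3g and Lcn2 were at the edge of detection in both libraries. Reg3b had 37 UMIs in 36 WT nuclei and 24 UMIs in 22 knockout nuclei, or 2.79 (1.96 to 3.85) and 1.02 (0.651 to 1.51) CPM, a log2 ratio of -1.46 (-2.26 to -0.68). In epithelial-like nuclei it stood at 1.77 (0.968 to 2.97) and 0.900 (0.514 to 1.46), a log2 ratio of -0.98 (-2.11 to 0.17). The background nuclei had 4.97 (1.83 to 10.8) and 2.45 (0.297 to 8.85), so that Reg3b was not above background in epithelial-like nuclei of either library. Reg3g had 18 UMIs in 16 WT nuclei and 26 UMIs in 22 knockout nuclei, of which 5 lay in 1 nucleus.
Lcn2 had 17 UMIs in 15 WT nuclei and 11 UMIs in 9 knockout nuclei, or 1.28 (0.747 to 2.05) and 0.466 (0.233 to 0.834) CPM, a log2 ratio of -1.46 (-2.70 to -0.28). Only 6 and 4 of these UMIs were in epithelial-like nuclei. Lymphatic endothelial-like nuclei held 7 of the WT UMIs, in 6 nuclei, and immune-like cluster 15 held 5 of the knockout UMIs, in 3 nuclei. Neutrophils carry the Lcn2 protein in their granules, and their 6 markers summed to 5.28 (4.12 to 6.67) CPM in the WT library, with Ngp at 0, and 4.24 (3.45 to 5.15) in the knockout library.

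Lists of related genes were counted in the same way, and the shares of all genes are those given above. Of 16 other bactericidal and barrier genes, 9 could be compared over all nuclei, of which 3 were higher and 1 lower in the knockout library, with a median log2 ratio of 0.28, and 4 (Reg1, Reg2, Reg3a and Reg3d) had no UMI in either library. The higher genes were Sprr2a3 (59.4 and 163 CPM in WT and knockout), Sprr2a2 (9.88 and 25.5) and Sprr2a1 (1.51 and 3.05), small proline-rich protein genes whose near-identical sequences make their separation uncertain. The lower gene was Ang4, an antimicrobial angiogenin, with 27 and 9 UMIs. Zg16, a goblet cell lectin that aggregates bacteria, was within 2-fold at 870.2 and 725. Pigr, which carries IgA across the epithelium, stood at 738 and 782.
Of 9 other acute phase and iron-withholding genes, 8 could be compared, of which 3 were higher and 3 lower, with a median log2 ratio of 0.47. S100a8 (1.13 and 5.21) and S100a9 (2.26 and 6.61), which form calprotectin, and the metalloreductase gene Steap4 (8.45 and 19.7) were higher. Haptoglobin (Hp, 1.89 and 0.763), Saa3 (9.80 and 4.32) and Wfdc2 (21.7 and 10.1) were lower. These are levels over all nuclei. In epithelial-like nuclei 7 genes of this list could be compared, of which 2 were higher and 1 lower.
Of 7 other oxidase genes, 6 could be compared, of which 0 were higher and 1 lower, Nox4 (4.15 and 1.99). Nox1 (51.2 and 55.9) and its organizer Noxo1 (76.02 and 70.1), the superoxide-forming oxidase of the colonic epithelium, were within 2-fold. Of 16 receptors and regulators that act upstream of the members, 15 could be compared and 0 were past 2-fold, with a median log2 ratio of 0.33. Il22ra1, a receptor chain for IL-22, stood at 11.5 and 18.98, and Stat3 stood at 235 and 269.6. Of 8 chemokines 8 could be compared, of which 1 was higher, the interferon-induced Cxcl10, with 10 and 52 UMIs, and 0 were lower.

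In cluster 7, 14 of the receptors and regulators could be compared, with 1 higher and 1 lower. Nfkbiz, an inducible regulator of NF-kB target genes, was higher at 123 (103 to 145) and 284 (266 to 304). Il10rb, a receptor chain used by IL-10 and IL-22, was lower at 100.3 (82.6 to 121) and 47.6 (40.2 to 55.9). Of 4 acute phase genes 3 were higher and 1 lower. Steap4 was higher at 21.5 (13.8 to 31.98) and 73.3 (64.1 to 83.6), S100a8 and Slpi were higher on 2 and 23 and on 6 and 41 UMIs, and Wfdc2 was lower at 42.1 (30.9 to 55.97) and 18.9 (14.4 to 24.4). Of 7 bactericidal genes 3 were higher and 0 lower. Sprr2a3 stood at 302 (270.4 to 336) and 629.6 (602 to 658), while Reg4 and Retnlb, which are goblet and deep crypt genes, rested on 7 and 60 and on 2 and 18 UMIs, the latter with a log2 ratio of 1.71 (-0.35 to 4.86). The goblet marker sums of cluster 7 are those given for Ido1, and their part in these ratios was not tested. Of 7 chemokines 2 were higher, Cxcl10 with 1 and 39 UMIs and Cxcl1 with 4 and 47. The chemokines Cxcl2, with 12 and 9, and Cxcl5, with 67 and 92, were lower per UMI of the cluster. Cluster 7 held 1116584 WT and 3068771 knockout UMIs of all genes. Of 4 oxidase genes 0 were past 2-fold.

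**Figure D4:**
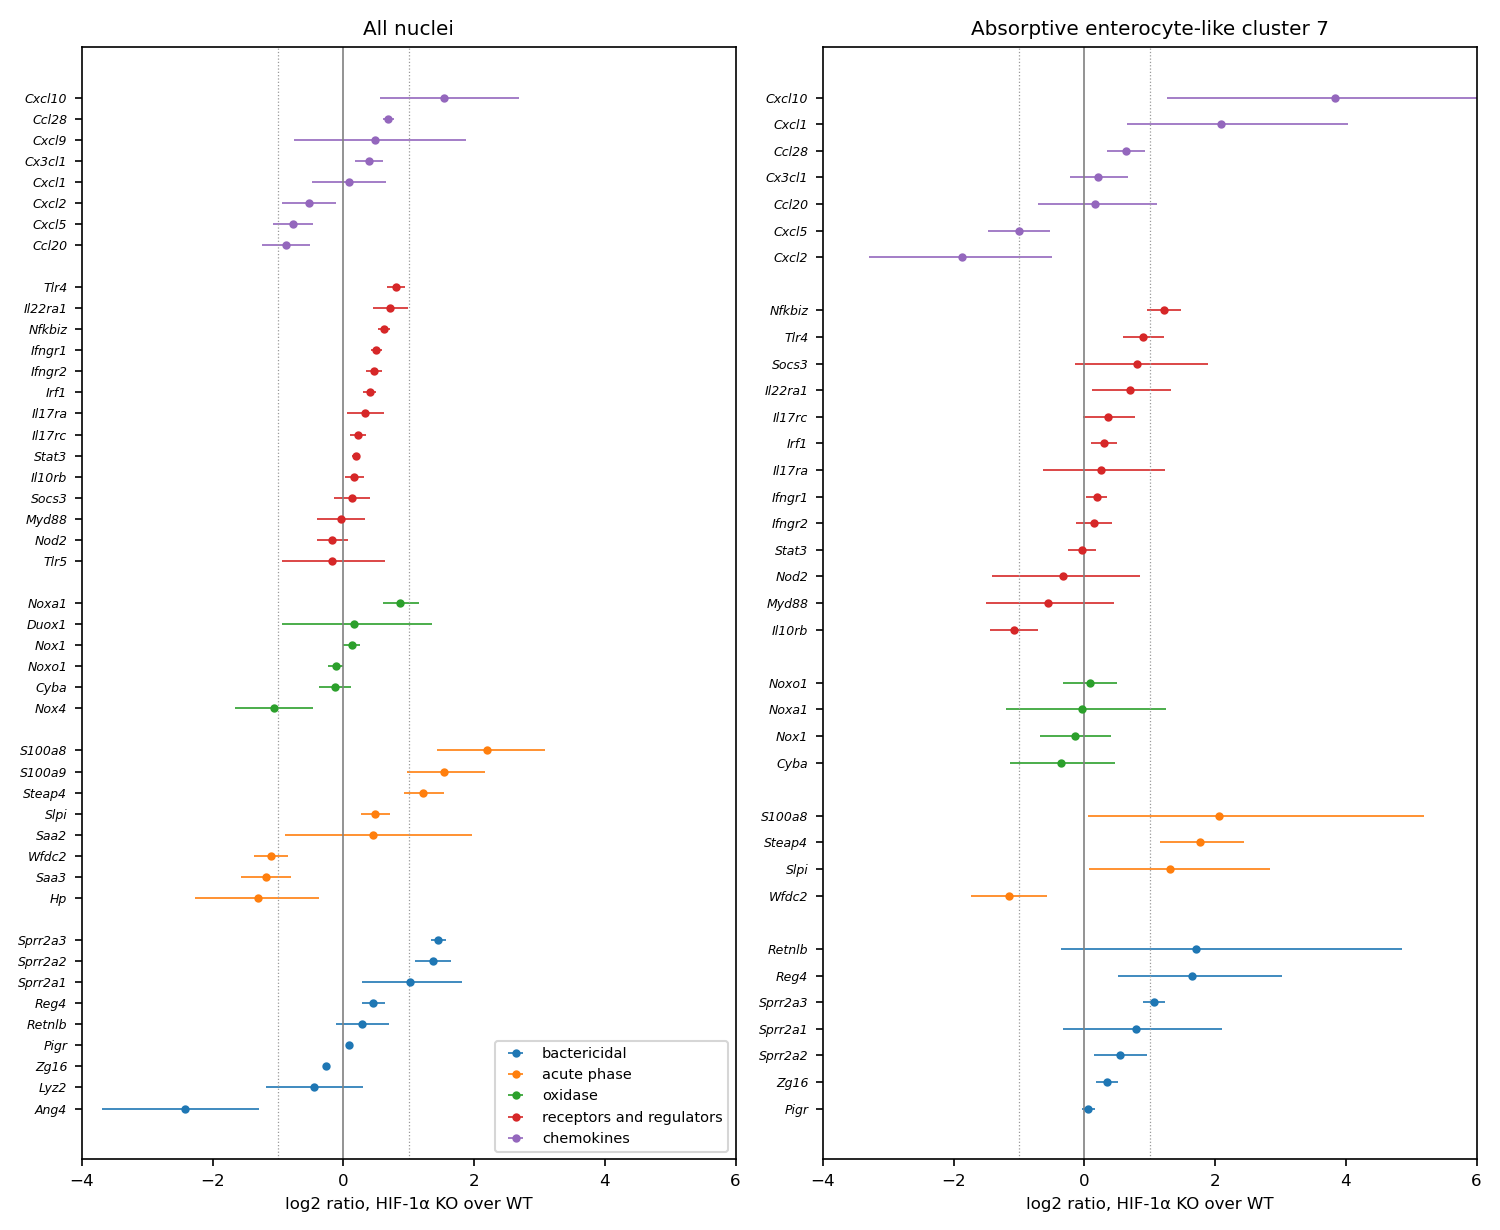
Log2 ratio of HIF-1α KO over WT (x axes) of genes of 5 lists with at least 20 UMIs (y axes, coloured by list), over all nuclei (left) and in absorptive enterocyte-like cluster 7 (right), with exact conditional 95% intervals of counting error, cut at the axis edge for Cxcl10, and dotted lines at 2-fold. The receptors and regulators drawn lie within 2-fold over all nuclei, while Nfkbiz lies at 1.21 and Il10rb at -1.08 in cluster 7.

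For the 6 members with at least 100 UMIs, the genes with the most similar pattern were sought among 12786 genes by Pearson's r of log2(CPM + 10) over 26 sums, each of a class of nuclei in a library. The sums share 2 libraries and their depths, and r is given as a description. Saa1 was most like AA467197 (r = 0.95), Rhob (0.95) and Crip1 (0.94), and Duoxa2 was most like Rhob (0.92), Saa1 (0.89) and Prr13 (0.89). Duox2 was most like Sectm1b (0.91), Xkr9 (0.91) and Lmo7 (0.88), and Lypd8 was most like Ptprh (0.96), Eif2s2 (0.95) and Trim31 (0.95). Ido1 was most like Fcgbp (0.89), Clca1 (0.88) and Sytl2 (0.87), of which Fcgbp and Clca1 are among the markers that named the goblet-like clusters. Nos2 was most like Gm15283 (0.82), Rasa2 (0.80) and Nfkbiz (0.79).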

How the data were processed

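Nuclei of snap-frozen colon were profiled with the 10x Genomics 3′ v3.1 kit, in 1 library per genotype, each pooled from 3 mice. The authors made the deposited UMI counts per gene and barcode with Cell Ranger 7.0.1 (submitters' processing notes) on the mm10 build, and whether intronic reads were counted is not given in the sources used here. The deposited tables held 13492810 WT and 25489277 HIF-1α KO UMIs in 4896 and 4772 barcodes. Nuclei with 400 to 5000 detected genes and at most 10% mitochondrial UMIs were kept (4884 and 4702), and no doublet caller was run beside the limit of 5000 genes.

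Libraries were integrated and clustered in Seurat 5.3.0 (R 4.3.3; 2000 variable features, 30 principal components, resolution 1, seed 1) without 66 genes, the members and their pathway genes. For each cluster the marker list with the highest mean log2 ratio was considered. Its name required at least 3 of its markers with a log2 ratio of at least 1, each detected in at least 10% of nuclei. The 10 leading genes also had to hold at least 1 marker of that list, and no fewer than of any other list. UMIs were summed per library and cluster and scaled to 1000000 (CPM). Intervals are exact at 95% (Poisson for levels, Clopper-Pearson for shares, conditional binomial for ratios; scipy 1.17.1) and cover counting error only. A gene was compared where the libraries together held at least 20 UMIs, and counted as higher or lower at 2-fold. Genes named are the members, at most 5 genes per pathway list past 2-fold, and for each member with at least 100 UMIs the 3 genes with the largest r. Duoxa1, Saa2, Zg16, Pigr, Nox1, Noxo1, Il22ra1 and Stat3 fall outside this rule and were chosen after their values were seen. The value of 1 listed gene is not reported here, though the counts and medians of its list include it. The level in smooth muscle-like and fibroblast-like nuclei, in CPM, was taken as the background of free RNA, which was not tested. These had medians of 1938 and 2271 UMIs, beside 2907.5 and 5107 in epithelial-like nuclei. The part of this depth in comparisons with the background and in its subtraction was not tested. The members and lists were chosen with earlier results of these data known, and the limits for naming clusters were set after the data were seen. Alternatives covered scaling (edgeR 4.0.16 TMM factors, DESeq2 1.42.0 size factors), filters, thinning, weighting and clustering. The calculation of ratios was tested on simulated data. Gene positions are from GENCODE (GRCm38).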

Additional observations from a re-analysis of the deposited data

How the results depend on the processing

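No paired analysis was possible because each genotype had 1 library, so there was also no replicate to leave out. Of 198 alternative values of single members, 165 lay inside the interval of the value given in the report, 33 lay outside it and 7 had the other sign, none of them for a member past 2-fold. These 7 were Duoxa2 over all nuclei (-0.00; 0.03 with TMM, 0.02 with median-of-ratios scaling, 0.07 with the mean over nuclei, 0.04 with all barcodes), Reg3g in epithelial-like nuclei (-0.46; 0.18 with thinning), and Saa1 in epithelial-like nuclei (0.17; -0.04 without integration) and in cluster 7 (-0.07; 0.02 with the mean over nuclei). Over all nuclei, 4 members in place of 2 were higher with a fold of 1.5, and 1 in place of 2 was lower with the mean over nuclei and with nuclei thinned to 1000 UMIs. In epithelial-like nuclei, 1 in place of 2 was higher with the mean over nuclei and with thinning, and 4 with a fold of 1.5. The count of lower members there was 1 in place of 0 with the mean over nuclei, without the top nucleus, with classes from marker scores, with no minimum of UMIs, with a fold of 1.5 and, chosen after seeing the data, with unnamed clusters 0, 1 and 3 counted as epithelial-like. The cause was not tested. The log2 ratio of Nos2 ranged over the alternatives from 1.49 to 1.80 over all nuclei, from 1.53 to 2.90 in cluster 7 and from 3.34 to 5.40 in goblet-like cluster 8. That of Ido1 ranged from 1.17 to 1.41 over all nuclei, from 1.39 to 2.89 in cluster 7, where the thinned value rests on 11 UMIs, and from 0.29 to 0.87 in goblet-like cluster 8. The few UMIs of Reg3b, Reg3g and Lcn2 limit what can be said of them.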
